A study of Mus musculus with 24 samples.

Results

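The interleukin-6 (IL-6) family of cytokines and its signaling chain was followed in mouse embryonic fibroblasts that lack Ku70, a protein of DNA end joining, after exposure to potassium bromate (KBrO3), bisphenol A (BPA) or both. The family was taken as 9 named genes: the ligands Il6, Lif and Il11, the receptor chains Il6ra, Il6st, Osmr and Lifr, the feedback inhibitor Socs3 and the transcription factor Stat3. Probes were chosen by the gene symbol or a RefSeq synonym of it in the scanner files, whatever their signal, and 15 probes of 8 members were found among probes for 19505 named genes. Lif was not analysed here because no probe carried its name. All 8 members passed the filter on dim probes, and the probe chosen for each was well above background on all 24 arrays. Where a gene had several probes, the brightest on average across the 24 arrays stood for it.

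Messenger RNA was measured on 24 single-color Agilent arrays in 2 sets that were extracted with different scanner software. Set 1 held 15 arrays of Ku70-/- cells: untreated control labelled at 4 hr, 20 mM KBrO3 for 1 hr with harvest at 4 or 24 hr, and co-exposure to 20 mM KBrO3 and 150 uM BPA with harvest at 4 or 24 hr. Set 2 held 9 arrays of Ku70-/- cells: untreated control with no time on its label, and 150 uM BPA alone, labelled 4 or 24 hr, for which the methods of the study give slightly longer incubations. Each group had 3 arrays, described by the submitters as independent experiments, and times count from the start of the KBrO3 exposure. Co-exposed cells received BPA before, during and after the KBrO3. All groups, the controls included, carry the Ku70 deletion, so no wild-type cells enter any comparison. KBrO3 is an oxidizing agent that damages DNA bases, and BPA is a plasticizer with hormone-like activity.

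IL-6 family cytokines signal through a shared receptor chain, gp130, which Il6st encodes. Interleukin-6 binds its own receptor chain (Il6ra) before joining gp130, interleukin-11 binds a related chain, and oncostatin M and leukemia inhibitory factor use gp130 together with the chains encoded by Osmr or Lifr. Receptor-bound JAK kinases then phosphorylate STAT3, which moves to the nucleus and activates genes that include Socs3, whose product binds gp130 and shuts the signal down. Fibroblasts are a known source of interleukin-6 under inflammatory stimulation.

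Promoter sequence is shown for Il6, Il11 and Socs3, the 3 members whose windows held a searched motif and whose mRNA changed. A link between these letters and the changes was not tested. The windows are the 250 bases before the RefSeq start in the build GRCm38.p6, printed 5′ to 3′ on the gene's strand. Capitals mark AP-1 letters (TGANTCA), STAT letters (TTCNNNGAA) or the kappa B consensus, each searched on both strands. Among 32841 windows of the same length, AP-1 letters were in 6.75%, STAT letters in 7.02% and the kappa B consensus in 3.9%.
Il6, chr5:30012864-30013113, plus strand: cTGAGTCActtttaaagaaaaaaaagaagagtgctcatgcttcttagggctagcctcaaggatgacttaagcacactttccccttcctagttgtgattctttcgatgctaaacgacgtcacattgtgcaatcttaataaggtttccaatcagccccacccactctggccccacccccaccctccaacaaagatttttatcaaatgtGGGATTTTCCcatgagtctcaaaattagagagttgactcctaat
Il11, second start, chr7:4778142-4778391, minus strand: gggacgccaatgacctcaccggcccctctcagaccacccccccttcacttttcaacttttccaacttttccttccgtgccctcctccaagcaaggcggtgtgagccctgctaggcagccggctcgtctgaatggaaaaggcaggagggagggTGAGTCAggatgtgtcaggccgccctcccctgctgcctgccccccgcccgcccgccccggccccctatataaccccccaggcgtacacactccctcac
Socs3, chr11:117969367-117969616, minus strand: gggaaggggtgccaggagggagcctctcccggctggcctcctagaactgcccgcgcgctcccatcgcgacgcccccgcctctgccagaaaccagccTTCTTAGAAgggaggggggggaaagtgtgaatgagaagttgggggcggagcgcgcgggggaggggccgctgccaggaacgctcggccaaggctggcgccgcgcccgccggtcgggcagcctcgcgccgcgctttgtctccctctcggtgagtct
The Il6 window held AP-1 letters 249 to 243 bases before the start and kappa B letters 44 to 35 bases before it. In Il11 the AP-1 letters lay 98 to 92 bases before the second start, and the window at its first start held no searched letters. Socs3 had STAT letters 154 to 146 bases before its start. None of the 3 motifs was found in the windows of Il6ra, Il6st, Osmr, Lifr and Stat3, which says only that these letters are not in these 250 bases. No motif overlapped another in the 3 windows.

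**Figure D1:**
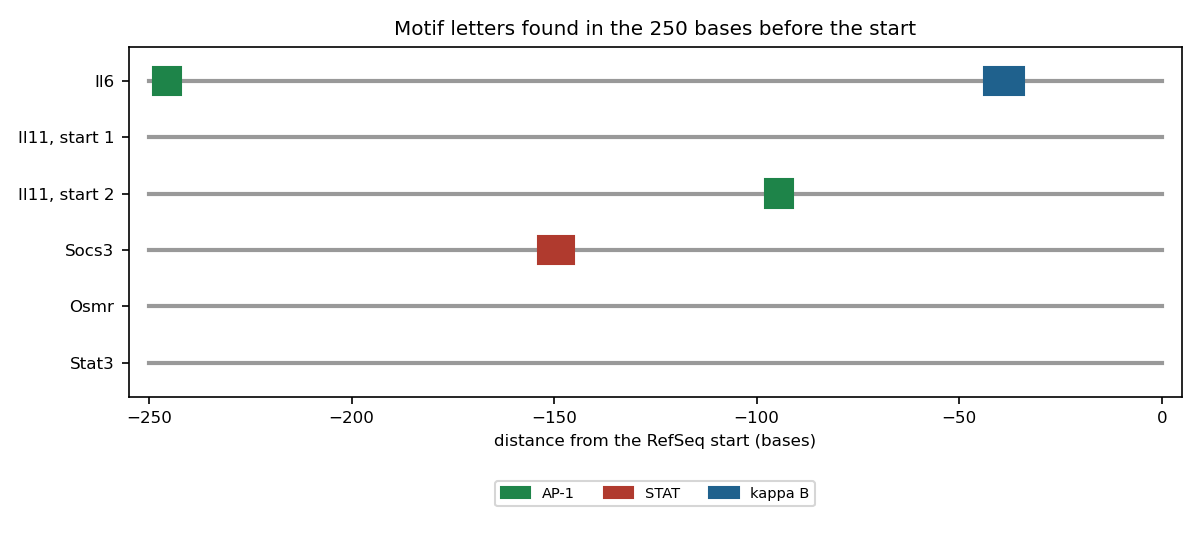
Positions of AP-1, STAT and kappa B letters in the 250 bases before the RefSeq start (x axis, bases before the start) of Il6, both starts of Il11, Socs3, Osmr and Stat3 (rows). Colored blocks stand for matches on either strand. Il6 held 2 matches, Il11 start 2 and Socs3 held 1 each, and the other rows held 0.

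The arrays resembled fibroblast RNA. Of 11 fibroblast markers (collagens, Pdgfra, Vim and others), 10 to 11 were well above background on every array. Of 4 endothelial and 4 epithelial markers, 1 to 3 and 0 to 4 were well above background on an array. Of 8 macrophage and leukocyte markers, 3 to 6 were well above background on an array of set 1 and 6 to 7 on an array of set 2. The leukocyte marker Ptprc and the endothelial marker Pecam1 were not well above background on any array, whereas Cd14, Cd68 and Lyz2, which macrophages express strongly, were above background on all 24. In set 1, between 57.4% and 67.8% of probes were well above background on an array, and in set 2 between 76.2% and 79.2%. The probe for Xrcc6, the Ku70 gene, was well above background on all arrays, but the labels do not give the deleted part of the gene, so this probe does not check the genotype. A level below is the log2 processed signal minus the 75th percentile of that array, so that 0 is the signal of the probe at that percentile. Levels were tested only within a set and only for the same probe.

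The p-values measure the spread between the arrays of 3 experiments, and comparisons within a set share its control arrays. A gene was called when its limma adjusted p (Benjamini-Hochberg over all probes of the set) was below 0.05 and its change exceeded 1.5-fold. With KBrO3 at 4 hr, 3 of 8 members were higher than control (Il6, Il11 and Il6ra) and 2 were lower (Osmr and Stat3), against 21.1% of 14100 genes called higher and 22.8% called lower. At 24 hr after KBrO3, 0 members were higher and 5 were lower (Il6, Il6st, Lifr, Socs3 and Stat3), against 12.7% and 21% of genes. Co-exposure at 4 hr gave 2 higher (Il6 and Il11) and 1 lower (Stat3), against 28.1% and 26.5%. Co-exposure at 24 hr gave the same 5 lower members as KBrO3 alone, against 15.7% higher and 23.9% lower of all genes. The KBrO3 groups thus moved a large share of the transcriptome, and the member counts are to be read against that share.

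With BPA alone fewer genes were called, in a set with a wider spread between arrays: the SE of the Il6 difference was 0.35 in set 2 and 0.06 in set 1. At 4 hr, 3 of 8 members were higher (Il6, Osmr and Socs3) and 0 lower, against 3.01% of 15740 genes called higher and 1.67% lower. At 24 hr, 2 members were higher (Il6 and Osmr) and 0 lower, against 1.83% and 2.5%. With normexp background correction, or with the slide as a fixed block, limma called 0 of 8 members at either time of BPA. In the latter fit the log2 differences of Il6 were 5.92 and 2.77, and with the slide as a random block the counts were again 3 and 2. The median log2 difference over the 8 members was 0.70 at 4 hr and 0.39 at 24 hr, beside -0.06 and 0.02 over all genes. For KBrO3 the members' median was 0.11 at 4 hr and -0.77 at 24 hr, beside 0.02 and -0.07 over all genes. For co-exposure it was 0.20 and -0.91, beside 0.01 and -0.06.

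**Figure D2:**
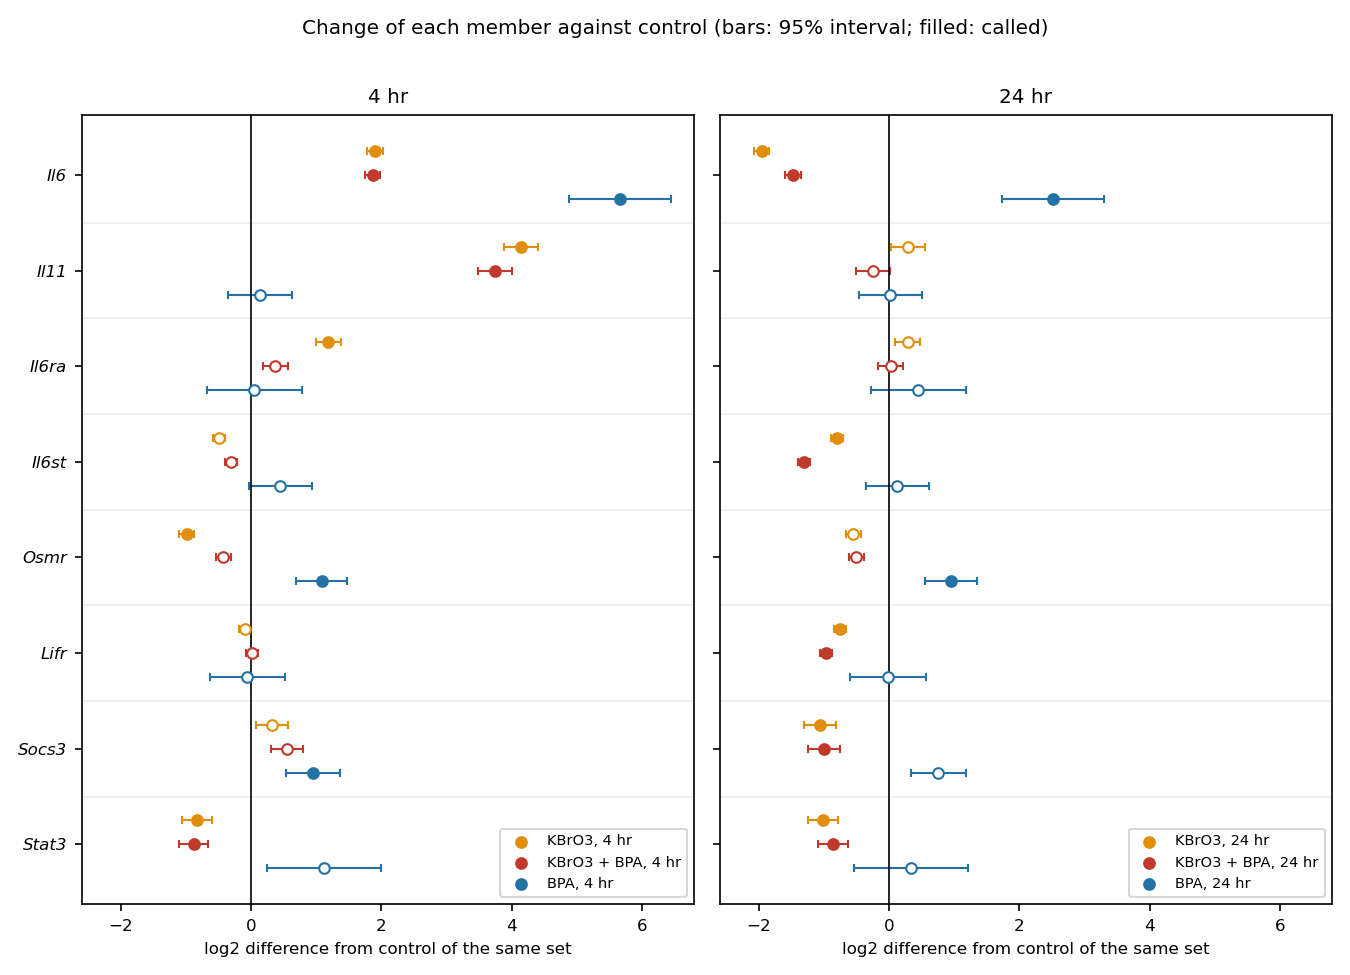
Log2 difference of each of 8 members from the control of its own set (x axis) at 4 hr (left) and 24 hr (right) for KBrO3, KBrO3 + BPA and BPA alone. Points are means over 3 against 3 arrays, bars are 95% intervals and filled points were called. At 24 hr Il6 lay at -1.95 and -1.47 in the KBrO3 groups and at 2.52 with BPA alone.

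Il6, the founding ligand of the family, changed in all 6 comparisons with control, and it changed in opposite directions at 24 hr. Its probe (A_51_P217218) lies at chr5:29052734-29052793 in the mm7 build of the set 1 headers and is printed 10 times on each array. The log2 level on the 3 control arrays of set 1 was 0.40, 0.45 and 0.33. It was 2.29, 2.31 and 2.29 at 4 hr after KBrO3 and 2.29, 2.17 and 2.31 after co-exposure. Every treated array at 4 hr stood above every control array, and the KBrO3-only and co-exposed arrays overlapped. Il6 rose 3.74-fold with KBrO3 (log2 difference 1.90, SE 0.06, adjusted p = 1.83e-11) and 3.64-fold with co-exposure (log2 difference 1.86, SE 0.06, adjusted p = 1.64e-11).

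At 24 hr the order in set 1 was turned around. The log2 level of Il6 was -1.62, -1.54 and -1.52 after KBrO3 and -1.09, -0.99 and -1.17 after co-exposure. All 6 of these arrays lay below the 3 controls, and the co-exposed arrays lay above the KBrO3-only arrays without overlap. Il6 was 3.88-fold lower than control after KBrO3 (log2 difference -1.95, SE 0.06, adjusted p = 3.53e-11) and 2.78-fold lower after co-exposure (log2 difference -1.47, SE 0.06, adjusted p = 2.47e-10). From 4 to 24 hr Il6 fell 14.5-fold after KBrO3 (log2 difference -3.86) and 10.1-fold after co-exposure (log2 difference -3.34). The controls of set 1 are labelled at 4 hr, so the 24 hr groups have no control of their own time.

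In set 2 the untreated level of Il6 was low, with log2 values of -5.25, -4.74 and -4.86 and processed signals of 31 to 46, yet well above background on all 3 arrays. With BPA alone at 4 hr the log2 level was 0.37, 0.81 and 0.96. It was -1.88, -2.19 and -3.22 at 24 hr. No BPA array reached down to a control array, and the 4 and 24 hr arrays did not overlap. Il6 rose 50.6-fold at 4 hr (log2 difference 5.66, SE 0.35, adjusted p = 0.000152) and was still 5.74-fold above control at 24 hr (log2 difference 2.52, SE 0.35, adjusted p = 0.00748). The fall from 4 to 24 hr was 8.82-fold (log2 difference -3.14, adjusted p = 0.00235).

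The Il6 rise with BPA differed in size between background corrections. With normexp background correction and an offset of 50, run on the mean spot signal in set 1 and on the median spot signal in set 2, the 4 hr log2 difference was 3.37 (adjusted p = 0.24) and the 24 hr one 0.65 (adjusted p = 0.71). On the slide that held control and 4 hr BPA arrays together, the log2 difference was 5.92, and on the 2 slides shared by control and 24 hr BPA arrays it was 2.86 and 2.67. Untreated Il6 in set 1 had a log2 level of 0.39 ± 0.06 (SD, n = 3) and in set 2 a level of -4.95 ± 0.27 (SD, n = 3). These levels come from separately scanned sets and were not tested, since set, scanner software and time label cannot be told apart.

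**Figure D3:**
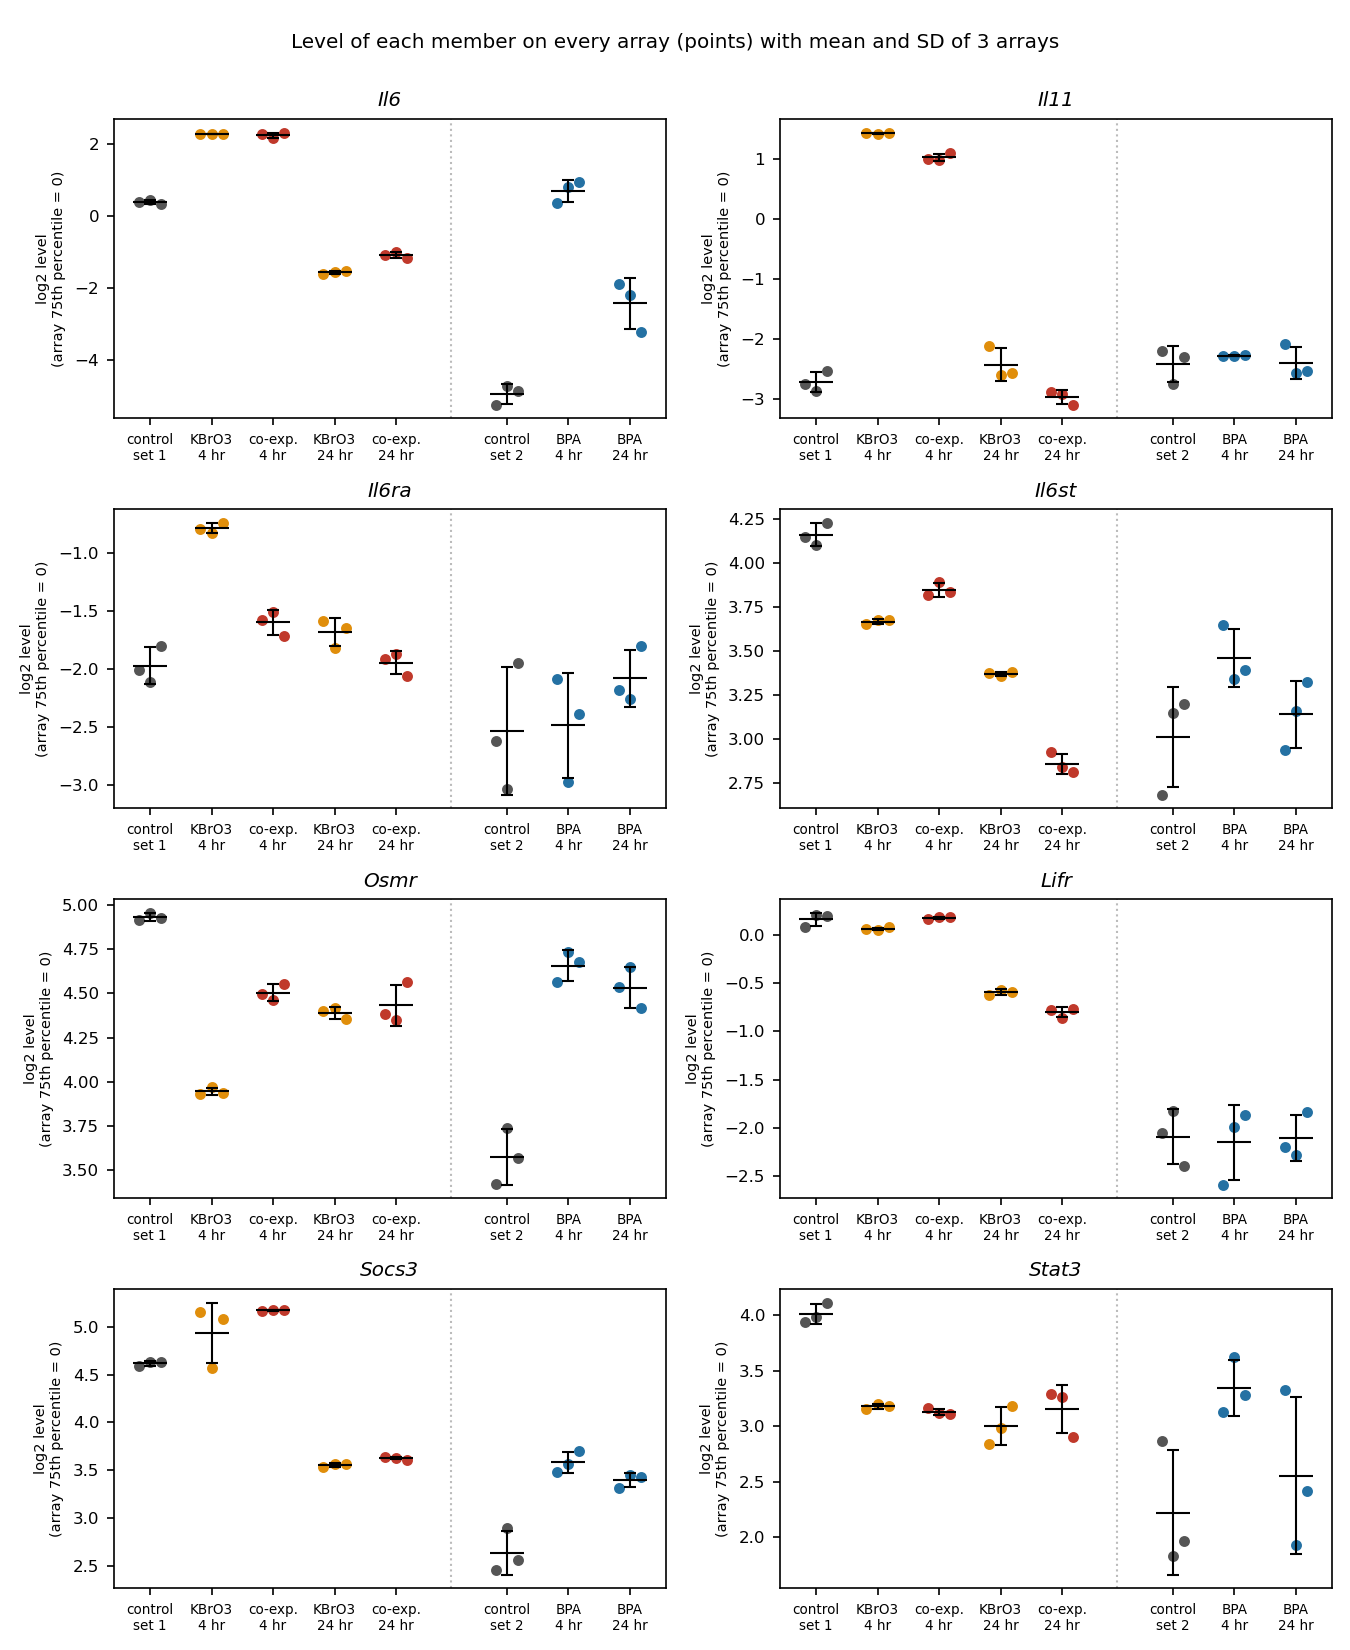
Log2 level of each member (y axis, 0 is the 75th percentile of the array) on every array of the 8 groups, set 1 to the left and set 2 to the right of the dotted line. Points are arrays, and bars give the mean and SD of 3 arrays. Il6 stood highest at 4 hr in every treatment and fell below control only in the 24 hr KBrO3 and co-exposed arrays.

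Il11, a ligand that fibroblasts release under stress and growth factor signals, rose with KBrO3 and was not called with BPA alone. Its probe lies at chr7:4347807-4347866 (mm7). Log2 levels were -2.75, -2.87 and -2.54 in control, 1.43, 1.41 and 1.43 at 4 hr after KBrO3, and 1.00, 0.98 and 1.09 at 4 hr after co-exposure. The 3 groups did not overlap, and the KBrO3-only arrays were the highest. Il11 rose 17.6-fold with KBrO3 (log2 difference 4.14, SE 0.12, adjusted p = 1.94e-11) and 13.4-fold with co-exposure (log2 difference 3.74, SE 0.12, adjusted p = 3.39e-11).

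By 24 hr Il11 was back near the control level, at -2.11, -2.61 and -2.57 after KBrO3 and -2.89, -2.92 and -3.10 after co-exposure. Neither group was called against control, with log2 differences of 0.29 (adjusted p = 0.0524) and -0.25 (adjusted p = 0.0863). Under the alternatives the difference ran from -0.66 to 0.44 after KBrO3 and was never called. After co-exposure it ran from -0.99 to 0.07 and was called lower with normexp background correction. The fall from 4 to 24 hr was 14.4-fold after KBrO3 and 15.9-fold after co-exposure. In set 2 the log2 level was -2.20, -2.76 and -2.31 in control, -2.29, -2.29 and -2.27 at 4 hr of BPA and -2.09, -2.57 and -2.54 at 24 hr, so that all 3 groups overlapped. The log2 difference with BPA was 0.14 at 4 hr (95% interval -0.35 to 0.63, adjusted p = 0.769) and 0.02 at 24 hr (95% interval -0.47 to 0.51, adjusted p = 0.971).

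Of 8 other ligands that signal through gp130 or a related chain, 7 had a probe above the filter. At 4 hr 2 rose and 1 fell after KBrO3, against 21.1% and 22.8% of all genes. With KBrO3 at 4 hr, Clcf1 (cardiotrophin-like cytokine) rose by a log2 difference of 3.13 and Cntf (ciliary neurotrophic factor) by 0.67, while Ctf1 (cardiotrophin-1) fell by 1.53. Co-exposure at 4 hr raised 4, among them Clcf1 (log2 difference 2.25), and lowered Ctf1 (log2 difference -2.51), against 28.1% and 26.5% of all genes. Cntf and Clcf1 stayed above control at 24 hr in both KBrO3 groups, with log2 differences between 0.67 and 1.14. With BPA alone limma called 0 of 7 at either time, and 1 at each time had an unadjusted p below 0.05. Of all genes, 3.01% were higher and 1.67% lower at 4 hr of BPA, and 1.83% and 2.5% at 24 hr, so 0 of 7 is near that share.

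Among the receptor chains, the ligand-binding chain Il6ra rose after KBrO3 alone and was lower when BPA was present. Log2 levels were -2.01, -2.11 and -1.80 in control, -0.79, -0.83 and -0.74 at 4 hr after KBrO3, and -1.58, -1.51 and -1.71 after co-exposure. The 3 groups did not overlap. Il6ra rose 2.27-fold with KBrO3 (log2 difference 1.18, SE 0.09, adjusted p = 1.02e-07), was 1.30-fold above control and not called with co-exposure (log2 difference 0.37, SE 0.09), and stood 1.75-fold lower after co-exposure than after KBrO3 by itself (log2 difference -0.81, SE 0.09, adjusted p = 1.45e-05). It was the only 1 of 8 members called between those groups, against 10.6% of genes higher and 9.06% lower. The KBrO3-only and co-exposed arrays at 4 hr shared no slide, so slide and added BPA cannot be told apart there. A second, dimmer probe rose too with KBrO3 (log2 difference 1.13), and with normexp background correction the rise shrank to 0.42 (adjusted p = 0.13). Between co-exposed and KBrO3-only cells the second probe gave -0.54, short of 1.5-fold, and normexp ended the call (-0.67, adjusted p = 0.0822). In set 2 Il6ra varied widely, between -3.03 and -1.80, and was not called with BPA.

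Il6st, which encodes the shared chain gp130, was bright and fell at 24 hr in both KBrO3 groups. Log2 levels were 4.15, 4.10 and 4.23 in control, 3.37, 3.36 and 3.38 at 24 hr after KBrO3 and 2.92, 2.84 and 2.81 after co-exposure. The 3 groups were fully separate, with the co-exposed arrays lowest. Il6st was 1.73-fold below control after KBrO3 (log2 difference -0.79, SE 0.04, adjusted p = 1.04e-08) and 2.47-fold below after co-exposure (log2 difference -1.30, SE 0.04, adjusted p = 7.84e-11). At 4 hr the log2 differences were -0.49 and -0.31, short of the 1.5-fold minimum. Quantile normalization called the first of these lower. BPA alone gave log2 differences of 0.45 at 4 hr (95% interval -0.03 to 0.93) and 0.13 at 24 hr (95% interval -0.35 to 0.61), neither called.

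Osmr, which encodes the oncostatin M receptor chain, was called lower at 4 hr after KBrO3 alone and higher with BPA alone. In set 1 its log2 level was 4.92, 4.96 and 4.92 in control, 3.93, 3.97 and 3.94 at 4 hr after KBrO3, and 4.50, 4.46 and 4.55 after co-exposure. The co-exposed arrays lay between the other groups with no overlap. Osmr was 1.98-fold lower with KBrO3 (log2 difference -0.99, SE 0.05, adjusted p = 3.86e-09), whereas the log2 difference with co-exposure was -0.43 and short of the fold minimum. At 24 hr the log2 differences were -0.54 after KBrO3 and -0.50 after co-exposure, also short of it. With both probes averaged, co-exposure at 4 hr (-0.72), KBrO3 at 24 hr (-0.68) and co-exposure at 24 hr (-0.64) were called lower. Quantile normalization also called co-exposure at 4 hr lower. The log2 difference between co-exposed and KBrO3-only cells at 4 hr was 0.56 (SE 0.05, adjusted p = 4.55e-06), 1.47-fold and thus not called. Quantile normalization called it higher. Those groups shared no slide, so slide and added BPA cannot be told apart. A second probe of Osmr was lower in all 4 KBrO3 and co-exposed groups, with log2 differences from -1.43 to -0.78.

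In set 2 the log2 level of Osmr was 3.42, 3.74 and 3.57 in control, 4.56, 4.73 and 4.68 at 4 hr of BPA and 4.54, 4.65 and 4.42 at 24 hr. All 6 BPA arrays stood above the 3 controls. Osmr rose 2.12-fold at 4 hr (log2 difference 1.08, SE 0.18, adjusted p = 0.0116) and 1.94-fold at 24 hr (log2 difference 0.96, SE 0.18, adjusted p = 0.0224). These calls were near the threshold: the first was lost without BPA 4 hr replicate 2 (adjusted p = 0.054) or replicate 3 (adjusted p = 0.074), and the latter without control replicate 1 or 3, BPA 4 hr replicate 3, or BPA 24 hr replicate 1 or 2 (adjusted p = 0.057 to 0.084). The 4 hr call was also lost when both probes were averaged (0.83, adjusted p = 0.0683), and the 24 hr call with median scaling (adjusted p = 0.0560), the replicate number as a block (adjusted p = 0.0594) and only the 2 groups fitted (adjusted p = 0.106). The second probe gave log2 differences of 0.59 and 0.88, not called.

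Lifr, which encodes the leukemia inhibitory factor receptor, was lower at 24 hr in the KBrO3 groups by its brightest probe. Log2 levels were 0.08, 0.20 and 0.19 in control, -0.63, -0.57 and -0.59 at 24 hr after KBrO3 and -0.77, -0.86 and -0.77 after co-exposure, with no overlap between control and treated arrays. The log2 difference was -0.75 (SE 0.04) after KBrO3 and -0.96 (SE 0.04) after co-exposure. The 5 probes of Lifr did not behave alike. At 24 hr after KBrO3 their log2 differences ran from -2.22 to 0.05 and 3 of the 5 were called lower, so the size of the change depends on the probe. The value of -2.22 came from a probe (A_52_P438170) printed under the name A230075M04Rik, which RefSeq lists as a synonym of Lifr. BPA alone gave log2 differences of -0.06 and -0.02 by the brightest probe, with all groups overlapping. The other 4 probes gave 0.25 to 0.91 at 4 hr and 0.14 to 0.86 at 24 hr, none called, and 1 of them (A_52_P297113) did not overlap control at either time.

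Of 5 other receptor chains, Il11ra1, which encodes the interleukin-11 receptor chain, fell in both KBrO3 groups at both times. Its log2 difference was -0.72 at 4 hr and -1.79 at 24 hr after KBrO3, and -1.22 and -1.61 after co-exposure. At 24 hr 3 of 5 chains were lower after KBrO3, against 21% of all genes, and 4 of 5 after co-exposure, against 23.9%, among the latter Il31ra, not well above background on any treated array and at least 2.47-fold lower. BPA alone gave 0 calls by limma at either time, with 0 unadjusted p below 0.05 at 4 hr and 2 at 24 hr. That is near the share of all genes, 3.01% higher and 1.67% lower at 4 hr and 1.83% and 2.5% at 24 hr.

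Stat3, the transcription factor at the end of the chain, was lower in all 4 KBrO3 and co-exposed groups. Log2 levels were 3.94, 3.99 and 4.11 in control, 3.15, 3.20 and 3.19 at 4 hr after KBrO3, 3.16, 3.12 and 3.11 at 4 hr after co-exposure, 2.84, 2.98 and 3.18 at 24 hr after KBrO3 and 3.29, 3.26 and 2.90 at 24 hr after co-exposure. Every treated array lay below every control array. The log2 difference was -0.83 at 4 hr (SE 0.10, adjusted p = 1.14e-05) and -1.01 at 24 hr (SE 0.10, adjusted p = 3.02e-06) after KBrO3. After co-exposure it was -0.88 and -0.86, where the first call was lost when both Stat3 probes were averaged (-0.41) and the latter with median scaling (-0.54) and normexp background correction (-0.52). A second, dimmer probe gave -0.50, 0.07, -0.37 and -0.73 for KBrO3 4 hr, co-exposure 4 hr, KBrO3 24 hr and co-exposure 24 hr, and only the last was called.

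With BPA alone Stat3 was not called. Its log2 level was 2.86, 1.83 and 1.97 in control, 3.13, 3.63 and 3.28 at 4 hr and 3.32, 1.93 and 2.41 at 24 hr. All 4 hr arrays stood above all controls, and the 24 hr arrays overlapped both groups. At 4 hr the log2 difference of 1.12 (SE 0.39) had an adjusted p of 0.154. The 24 hr difference of 0.33 (SE 0.39) had an adjusted p of 0.703. In a fit of all 24 arrays together, the 4 hr difference was called (adjusted p = 0.0055), and the second probe gave 0.84 at 4 hr (adjusted p = 0.112).

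Calls among JAK kinases and the other STAT factors came mainly at 4 hr in the KBrO3 groups. Of 9 genes tested, 6 fell and 1 rose at 4 hr after KBrO3, against 22.8% and 21.1% of all genes. Jak1, the kinase most used by gp130, rose by a log2 difference of 1.02. Among the genes that fell were Tyk2, Stat5a, Stat5b and Stat6, with log2 differences from -1.48 to -0.99, and Jak3, which fell by 0.85. The median log2 difference of the list was -0.99, beside 0.02 over all genes. After co-exposure at 4 hr 5 fell and 1 rose, against 26.5% and 28.1% of all genes, and the median was -0.92, beside 0.01. At 24 hr only Stat5a and Stat5b among the 9 were called, both lower, in KBrO3-only and co-exposed cells, a share near the 21% and 23.9% of all genes called lower. With BPA alone limma called 0 of 9 at either time, with 2 unadjusted p below 0.05 at 4 hr and 0 at 24 hr. The share of all genes was similarly small, 3.01% higher and 1.67% lower at 4 hr and 1.83% and 2.5% at 24 hr.

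Socs3, the feedback inhibitor that STAT3 induces, rose with BPA at 4 hr and was lower at 24 hr in the KBrO3 groups. In set 1 the log2 level was 4.59, 4.63 and 4.63 in control, 5.15, 4.57 and 5.08 at 4 hr after KBrO3 and 5.17, 5.17 and 5.18 at 4 hr after co-exposure. KBrO3 replicate 2 lay just below the controls, and the co-exposed arrays all lay above them. Log2 differences at 4 hr were 0.32 (adjusted p = 0.0226) and 0.55 (adjusted p = 0.000627), both short of 1.5-fold. With normexp background correction both were called higher, with 0.85 after co-exposure. At 24 hr the log2 level was 3.54, 3.56 and 3.56 after KBrO3 and 3.64, 3.63 and 3.61 after co-exposure, all below control. The log2 difference was -1.06 (SE 0.11, adjusted p = 3.77e-06) after KBrO3 and -0.99 (SE 0.11, adjusted p = 5.96e-06) after co-exposure.

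With BPA alone the log2 level of Socs3 was 2.45, 2.89 and 2.56 in control, 3.49, 3.56 and 3.70 at 4 hr and 3.32, 3.45 and 3.42 at 24 hr. Every BPA array stood above every control. Socs3 rose 1.93-fold at 4 hr (log2 difference 0.95, SE 0.19, adjusted p = 0.0248), and the 24 hr difference of 0.76 (SE 0.19) did not pass (adjusted p = 0.0616). The 24 hr difference was called in a fit of all 24 arrays together and in a fit of gene means over probes. The 4 hr call was lost when control replicate 1 or 3 or any of the 3 BPA 4 hr arrays was left out, with adjusted p from 0.069 to 0.13. It was also lost with the replicate number as a block (adjusted p = 0.0620), with median scaling (adjusted p = 0.0911), with normexp (adjusted p = 0.703) and with only the 2 groups fitted (adjusted p = 0.0588).

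Other inhibitors of the chain were a mixed group. Of 15 genes (further SOCS proteins, PIAS proteins and tyrosine phosphatases), 6 rose and 2 fell at 4 hr after KBrO3, against 21.1% and 22.8% of all genes, among them Socs6 (log2 difference 1.25) and Ptpn2 (0.94) higher and Pias3 (-1.17) lower. Socs2, best known as an inhibitor of growth hormone signaling, rose at 24 hr by log2 differences of 1.84 after KBrO3 and 2.42 after co-exposure. BPA alone at 4 hr raised Socs1 (log2 difference 1.61, adjusted p = 0.0134) and Ptpn1 (log2 difference 1.00, adjusted p = 0.0261), against 3.01% of all genes higher and 1.67% lower. At 24 hr limma called 0 of 15, with 3 unadjusted p below 0.05, against 1.83% and 2.5% of all genes.

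Factors that control the decay of Il6 mRNA were called mainly after KBrO3, where more genes were called overall. Zc3h12a, which encodes the RNase regnase-1, rose with BPA at 4 hr by a log2 difference of 2.83 (SE 0.22, adjusted p = 0.000446). It fell at 24 hr by 2.4 after KBrO3 and by 2.09 after co-exposure on the log2 scale. Zfp36, which encodes the decay factor tristetraprolin, rose at 4 hr by 1.07 after KBrO3 and 1.16 after co-exposure. Arid5a, which stabilizes Il6 mRNA, rose in the same comparisons by 0.76 and 0.72. Of the 9 factors, 4 rose and 0 fell at 4 hr after KBrO3 (21.1% and 22.8% of all genes), 0 rose and 3 fell at 24 hr (12.7% and 21%), and with BPA alone 1 rose at 4 hr (3.01%) and 0 at 24 hr (1.83%). Their median log2 difference at 4 hr was 0.57 after KBrO3 and 0.50 with BPA alone, and the difference between agents was not tested for the list.

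Of 18 listed target genes of STAT3, 9 rose and 0 fell at 4 hr of BPA alone, against 3.01% and 1.67% of all genes, and 8 rose and 0 fell at 24 hr, against 1.83% and 2.5%. At 4 hr after KBrO3 7 of 18 rose and 5 fell, against 21.1% and 22.8% of all genes, and after co-exposure 6 rose and 4 fell, against 28.1% and 26.5%. At 24 hr after KBrO3 2 of 18 rose and 9 fell, against 12.7% and 21% of all genes, and after co-exposure 4 rose and 8 fell, against 15.7% and 23.9%. The median log2 difference of the list was 0.86 and 0.50 with BPA alone at 4 and 24 hr, beside -0.06 and 0.02 over all genes. After KBrO3 it was 0.13 at 4 hr and -0.61 at 24 hr, and after co-exposure 0.33 and -0.47. Several listed genes are also induced by other pathways, so the list does not measure STAT3 activity on its own.

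The values of 3 of those genes at 24 hr, chosen after they were seen, were as follows. Saa3 (serum amyloid A3) was higher with BPA alone by a log2 difference of 4.67 (SE 0.35, adjusted p = 0.00126) and lower after KBrO3 by 3.71 and after co-exposure by 4.14 on the log2 scale. Lcn2 (lipocalin-2) was higher with BPA by 4.24 and had log2 differences of -3.25 after KBrO3 and -2.29 after co-exposure. Hp (haptoglobin) gave 1.92, -5.41 and -7.07 in the same order. Bcl3, an atypical inhibitor of NF-kappa B, and Cebpd, a C/EBP factor of the acute-phase response, rose at 4 hr of BPA by log2 differences of 2.67 and 3.31. Bcl3 fell at 4 hr in both KBrO3 groups, by 1.96 and 2.43. Among the other targets, Myc rose at 4 hr in all 3 treatments, by 2.67 after KBrO3, 3.19 after co-exposure and 1.28 with BPA, and Vegfa rose by 3.42 and 3.70 in the KBrO3 groups at 4 hr. Pim1, Bcl6 and Ccnd1 were called lower in both KBrO3 groups at 4 hr.

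**Figure D4:**
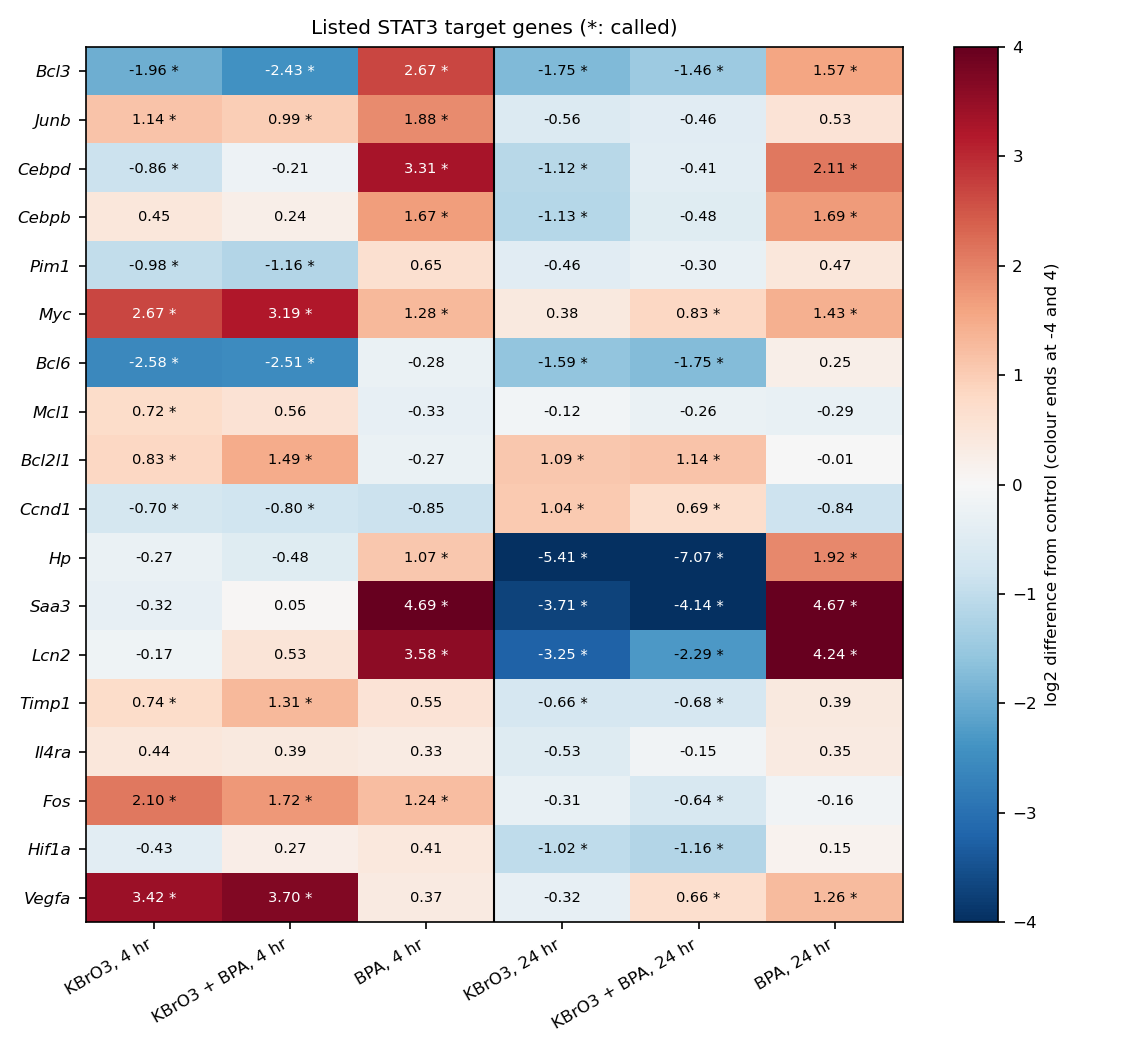
Log2 difference from the control of the same set for 18 listed STAT3 target genes (rows) in 6 treatments (columns, 4 hr left and 24 hr right of the line). Red is higher and blue is lower than control, and an asterisk marks a called gene. Saa3 and Lcn2 were called higher in both BPA columns and lower in both 24 hr KBrO3 columns.

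Fibroblast markers were lower at 24 hr in the KBrO3 groups, where 5 of 8 members were lower too. Of 11 markers, 10 were lower after KBrO3, against 21% of all genes, and 10 after co-exposure, against 23.9%. Their median log2 difference was -1.46 and -1.65, beside -0.07 and -0.06 over all genes. Their summed log2 level was 10.4 to 10.5 in control, 8.97 to 9.11 at 24 hr after KBrO3 and 8.59 to 8.77 after co-exposure. At 4 hr 1 marker (Pdgfrb) was lower after KBrO3, against 22.8% of all genes. After co-exposure 4 were lower at 4 hr (Pdgfra, Pdgfrb, Vim and Lum), against 26.5%. Between co-exposed and KBrO3-only cells at 24 hr 4 were lower, against 7.59%. With BPA alone limma called 0 of 11 at 4 hr (1 had an unadjusted p below 0.05), against 3.01% of all genes higher and 1.67% lower, and 1 (Thy1, lower) at 24 hr, against 1.83% and 2.5%. Among the 8 macrophage and leukocyte markers, Cd68 (a lysosomal protein) was higher in all 4 KBrO3 and co-exposed groups, by log2 differences from 1.16 to 2.25, and Lyz2 (lysozyme) was lower at 24 hr in all 3 treatments, by log2 differences from -2.51 to -1.69. Csf1r was higher at 4 hr in both KBrO3 groups, Cd14 lower at 4 hr of co-exposure, and Fcgr1 higher at 4 hr of BPA. The endothelial marker Kdr was higher in all 4 KBrO3 and co-exposed groups, by log2 differences from 0.60 to 1.58, and Tek, the other endothelial marker tested in set 1, was lower at 24 hr of co-exposure (log2 difference -1.09). The epithelial marker Krt8 was higher at 4 hr in both KBrO3 groups, and Krt18 was lower at 4 hr of co-exposure. The summed log2 level of the 8 macrophage and leukocyte markers stayed between 1.23 and 1.66 in set 1 and between 0.12 and 0.56 in set 2. Their part in the member results was not tested. Fewer cells of a type and less RNA per cell cannot be told apart in these bulk samples. In set 1 the 24 hr KBrO3 arrays and all co-exposed arrays shared no slide with a control, so the slide cannot be told apart from the treatment there.

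What BPA did when KBrO3 was also present was read from co-exposed against KBrO3-only cells of the same time. At 4 hr those groups shared no slide. Slide and added BPA therefore cannot be told apart in that difference, nor in the contrasts below that use it. At 24 hr 0 of 8 members were called between them, against 6.55% of genes higher and 7.59% lower. By limma 5 members passed the adjusted p there with changes under 1.5-fold: Il6 was higher (log2 difference 0.48), and Il11 (-0.54), Il6st (-0.51), Il6ra (-0.26) and Lifr (-0.21) had lower values. On the slide that held 2 arrays of each group the Il6 difference was 0.50 and the Il6st difference -0.49. Only Il6st among the 8 showed a called shift of the BPA difference between 4 and 24 hr, with a change of -0.69 (SE 0.06, adjusted p = 4.17e-06), against 26.6% of genes called in either direction. That call was lost with median scaling (-0.38), where Il6 and Il6ra were called instead, and with normexp (-0.73, adjusted p = 0.092).

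The effect of BPA alone was then set against what BPA did on top of KBrO3, in a fit over all 24 arrays. At 4 hr the log2 difference of Il6 was 5.66 with BPA alone and -0.04 with BPA added to KBrO3, and those effects differed by 5.70 (SE 0.33, adjusted p = 3.52e-09). The difference between the effects was also called for Socs3 (0.71, adjusted p = 0.0133) and Stat3 (1.17, adjusted p = 0.0455), so for 3 of 8 members against 15.9% of 15806 genes. At 24 hr it was called for 4 of 8 against 5.24% of genes: Il6 (2.04, adjusted p = 0.00104), Osmr (0.91, adjusted p = 0.000441), Socs3 (0.69, adjusted p = 0.0377) and Il6st (0.64, adjusted p = 0.0453). Of 27 alternatives, 19 ended the call of Stat3 at 4 hr, 22 that of Il6st at 24 hr and 18 that of Socs3 at 24 hr, most of them by leaving out an array. Only the calls of Socs3 at 4 hr, Osmr at 24 hr and Il6 at both times held in every leave-one-out fit, and of these normexp background correction ended Socs3 at 4 hr (0.69), Osmr at 24 hr (1.10) and Il6 at 24 hr (0.20). These contrasts set arrays of set 2 against arrays of set 1, so that set and the presence of KBrO3 cannot be told apart.

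**Figure D5:**
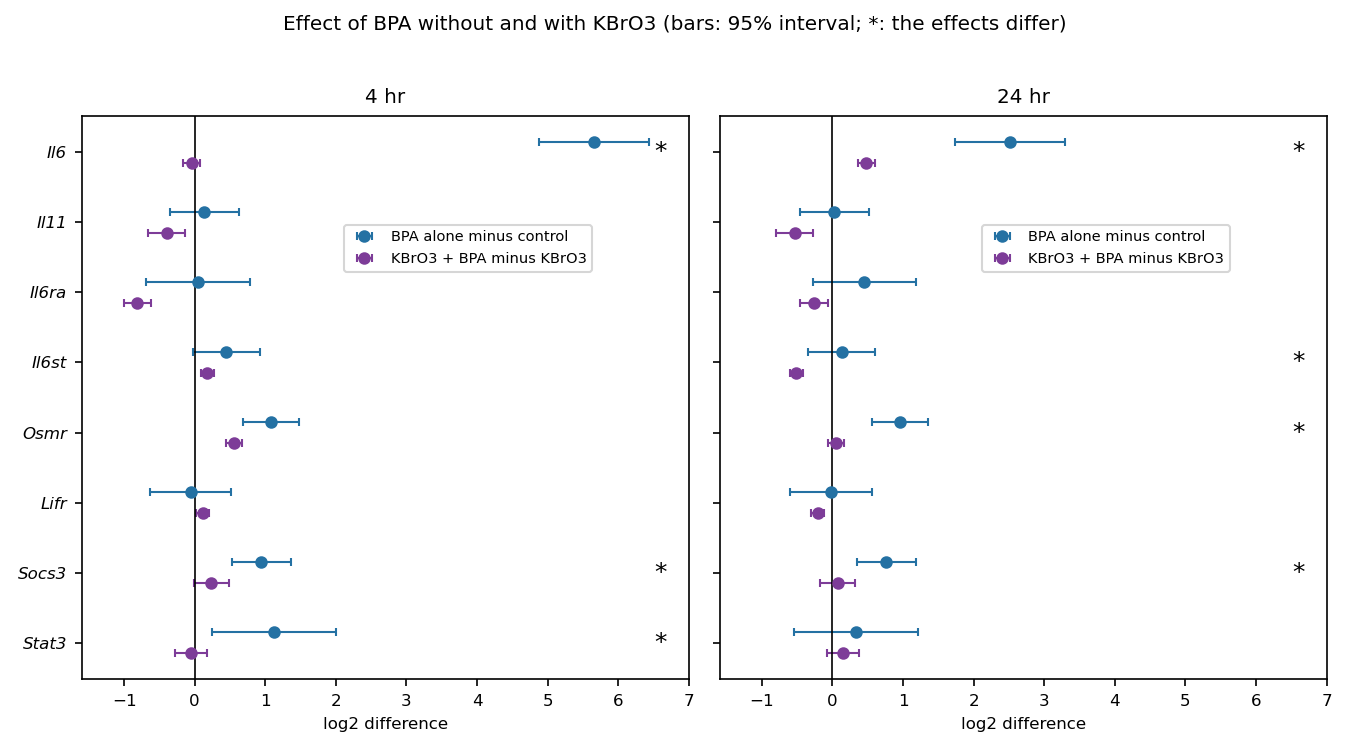
Log2 difference made by BPA (x axis) in each member without KBrO3 (BPA alone minus control) and with KBrO3 (co-exposed minus KBrO3-only), at 4 hr (left) and 24 hr (right). Bars are 95% intervals, and an asterisk marks members whose 2 effects differed. At 4 hr the Il6 effects were 5.66 and -0.04.

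Compared with KBrO3 alone, BPA alone gave another profile of the family. The comparison sets arrays of set 2 against arrays of set 1, so set and agent cannot be told apart. Mean untreated log2 levels were lower in set 2 than in set 1 for Il6 (-4.95 and 0.39), Osmr (3.58 and 4.93) and Stat3 (2.22 and 4.01). The same held for Il6st (3.01 and 4.16), Socs3 (2.64 and 4.62), Lifr (-2.09 and 0.16) and Il6ra (-2.53 and -1.97), but not Il11 (-2.42 and -2.72). These levels were not tested. At 4 hr the effects differed for 7 of 8 members, all but Lifr, against 34.9% of genes. BPA gave the larger value for Il6 (difference of effects 3.76), Osmr (2.07), Stat3 (1.96), Il6st (0.94) and Socs3 (0.63), and KBrO3 the larger for Il11 (-4.0) and Il6ra (-1.13). At 24 hr the effects differed for 6 of 8, against 29.3% of genes, and in all 6 BPA gave the larger value, from 0.74 for Lifr to 4.48 for Il6. The call of Lifr was lost without control replicate 3 of set 2 (0.59) or BPA 24 hr replicate 3 (0.60), and that of Socs3 at 4 hr fell short of 1.5-fold without KBrO3 4 hr replicate 2 (0.45), control replicate 1 of set 2 (0.54) or BPA 4 hr replicate 3 (0.57). Median scaling ended both calls, with adjusted p of 0.0740 for Lifr and 0.0619 for Socs3. With normexp background correction 3 of 8 remained called at each time, and at 4 hr the calls of Il6 (1.48), Il6ra (-0.35), Il6st (0.71) and Socs3 (0.34) were lost, and at 24 hr those of Il6st (0.76), Lifr (0.42) and Stat3 (1.12).

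Several members were lower at 24 than at 4 hr. In each treatment the 4 and 24 hr arrays shared no slide, so slide and time cannot be told apart. After KBrO3 5 of 8 were lower at 24 than at 4 hr (Il6, Il11, Il6ra, Lifr and Socs3) and 0 were higher, against 28.6% of genes lower and 19.2% higher. After co-exposure 5 were lower (Il6, Il11, Il6st, Lifr and Socs3) and 0 higher, against 34.1% and 23.4%. With BPA alone only Il6 of the 8 was called, lower, against 3.06% of genes lower and 1.25% higher. Osmr had positive log2 differences of 0.44 after KBrO3 and negative ones of -0.07 and -0.12 in the other treatments, none called, although after KBrO3 its second probe was called higher (log2 difference 0.61) and the first was called higher with quantile normalization (0.85) and median scaling (0.59). Median scaling also ended the call of Lifr after KBrO3 (-0.51) and those of Lifr (-0.52) and Il6st (-0.53) after co-exposure.

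Likeness between genes was measured over the 24 arrays as the correlation of each array's log2 difference from the mean control of its set. The genes most like Il6, among 13921 genes with a value on every array, were Ccl2 (Pearson r = 0.986), Ccl7 (0.978), Cxcl1 (0.974), Ch25h (0.971) and Ccl20 (0.970). Of these, 4 encode chemokines, and Ch25h encodes cholesterol 25-hydroxylase. Within set 1 alone r was between 0.929 and 0.990 for these genes, and within set 2 between 0.976 and 0.993. For Socs3 the most alike were Slpi (0.977), Mmp3 (0.975), Pfkfb3 (0.962), Sphk1 (0.956) and Ch25h (0.954), with r between 0.945 and 0.982 within set 1 and between 0.853 and 0.955 within set 2. Among the members, Il6 and Socs3 were the most alike (r = 0.90), and Osmr and Stat3 followed Il11 in the opposite sense (r = -0.55 and -0.41). These values describe arrays that share 2 sets and 8 groups, and they carry no test.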

How the data were processed

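RNA from 24 cultures was hybridized to single-color Agilent Whole Mouse Genome arrays, 1 array per culture. The deposited intensity values are the processed signals of Agilent Feature Extraction (version 9.5.3.1 for set 1 and 12.0.0.7 for set 2), which the authors obtained by background subtraction and detrending within each array. Deposited flag columns (other) mark spots well above background, saturated or outlying. The series value table held the same signals as the scanner files. Control spots and outlier spots were left out (3 of the member spots), spots of a probe were averaged, and log2 signals were centered on the 75th percentile of each array. Of 41174 probes, 32719 were named to a gene through the scanner files and RefSeq. A probe had to be well above background on all 3 arrays of some group to be tested, leaving 27310 in set 1, 31806 in set 2 and 31936 over both sets.

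Groups were compared with limma 3.58.1 in R 4.3.3 (lmFit and eBayes, two-sided, Benjamini-Hochberg over all probes tested), separately in each set and over 24 arrays for differences between effects. Figures were drawn with matplotlib 3.10.9. The tests were checked on simulated data. Members and gene lists were chosen with earlier results of these data known. Genes named were the members, the listed genes and the 5 genes most like Il6 and Socs3. Genes lacking a value on any array were left out of that ranking after its values had been seen. Alternatives were quantile normalization, median scaling, normexp background correction (offset 50), replicate and slide blocks, other thresholds and leaving out each array. Some listed genes are not reported here by name.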

Additional observations from a re-analysis of the deposited data

Results flagged for a closer look

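Some effects differed between times or between agents by a test of the difference itself (limma, adjusted p below 0.05 and more than 1.5-fold). Values are log2 differences.

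From 4 to 24 hr after KBrO3, the changes were -3.86 for Il6, -3.85 for Il11, -0.90 for Il6ra, -0.66 for Lifr and -1.38 for Socs3. After co-exposure they were -3.34 for Il6, -3.99 for Il11, -0.99 for Il6st, -0.98 for Lifr and -1.55 for Socs3. With BPA alone Il6 changed by -3.14. The difference made by BPA on top of KBrO3 shifted between the times by -0.69 for Il6st.

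The effect of BPA alone minus that of BPA added to KBrO3 at 4 hr was 5.70 for Il6, 0.71 for Socs3 and 1.17 for Stat3. At 24 hr it was 2.04 for Il6, 0.64 for Il6st, 0.91 for Osmr and 0.69 for Socs3.

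The effect of BPA alone minus that of KBrO3 alone at 4 hr was 3.76 for Il6, -4.0 for Il11, -1.13 for Il6ra, 0.94 for Il6st, 2.07 for Osmr, 0.63 for Socs3 and 1.96 for Stat3. At 24 hr it was 4.48 for Il6, 0.92 for Il6st, 1.5 for Osmr, 0.74 for Lifr, 1.82 for Socs3 and 1.34 for Stat3. Both kinds of difference set arrays of set 2 against arrays of set 1.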

How the results depend on the processing

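Of 3184 pairs of a member result and an alternative, 3003 stayed on the same side of the threshold, 129 lost the call, 52 gained it, and 0 called values changed sign. Among pairs called under neither setting, 71 changed sign. Counts of called members (of 8) that moved by more than 1.5 times, or to or from 0, were as follows, and smaller moves are not listed. With quantile normalization, 2 differed between co-exposed and KBrO3-only cells at 4 hr, 1 at 24 hr, and 3 in the change of that difference. With median scaling the last 2 of these counts were 1 and 2 (Il6 and Il6ra, not Il6st), 3 differed between 24 and 4 hr of co-exposure, 1 at 24 hr of BPA, and BPA alone differed from BPA added to KBrO3 for 6 at 4 hr and 2 at 24 hr. With normexp, 0 were called for BPA against control at 4 or 24 hr, for BPA between the times, for co-exposed against KBrO3-only cells at 4 hr, for the change of that difference, and for BPA alone against added BPA at 24 hr; that last contrast gave 1 at 4 hr, and BPA alone against KBrO3 alone gave 3 at each time. The offset of 50 exceeds the control signals of Il6 in set 2. With only the 2 groups fitted, 1 was called at 24 hr of BPA. With Bonferroni p below 0.01, 3 were called at 24 hr of KBrO3, 3 at 24 hr of co-exposure, 1 at 4 hr and 0 at 24 hr of BPA, and 0 between co-exposed and KBrO3-only cells at 4 hr. Without a fold minimum the counts were 7 at 4 hr of co-exposure, and 5 between co-exposed and KBrO3-only cells at each time. With slide as a random block the counts for BPA were as in the report, and with slide as a fixed block 0 were called at 4 or 24 hr of BPA, where Il6 kept 5.92 (adjusted p = 0.133) and 2.77 (adjusted p = 0.0721). In set 1 normexp also ended the calls of Il6ra and Stat3 at 4 hr and Il6st at 24 hr of KBrO3. It added calls of Socs3, higher, at 4 hr in both KBrO3 groups and of Il11, lower, at 24 hr of co-exposure. The causes were not tested. Alternatives for BPA alone against KBrO3 alone were chosen after seeing the data.

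With the replicate block, 2 members were called at 4 hr of BPA (Socs3 lost, adjusted p = 0.0620) and 1 at 24 hr (Osmr lost, adjusted p = 0.0594). Same-numbered arrays shared only a number: their residual correlation averaged -0.029 in set 1 and 0.0020 in set 2, with 1 of 15 and 2 of 9 arrays best with their own number.

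Leaving out each array in turn gave 1 to 3 called members at 4 hr of BPA and 1 to 2 at 24 hr, 0 to 1 between co-exposed and KBrO3-only cells at 24 hr, 1 to 2 for the change of that difference, 2 to 4 at either time for BPA alone against added BPA, and 6 to 7 (4 hr) and 5 to 6 (24 hr) for BPA alone against KBrO3 alone. Precision is limited by 3 arrays per group.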
